A study of Mus musculus with 12 samples.

Results

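The translation initiation and elongation factors of mouse liver were taken as all genes of the deposited count matrix whose symbol begins with Eif1 to Eif5 or with Eef1 or Eef2. Left out were the 4 eIF2 kinases, Eif2s1, Eif4ebp1, Eif4ebp2, Eif4a3 and names containing -ps. The rule used names only and gave 80 of 56980 genes, of which 66 bear an initiation factor name (Eif) and 14 an elongation factor name (Eef). Among the 66, Eif1ad9 is annotated as an unprocessed pseudogene and Eif2c5 as a lincRNA, both without a count here. Of the 80, 59 had a count in at least 1 library and 57 passed the filter on low counts and were tested, 45 initiation and 12 elongation members.

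Livers came from male mice of the strain B6.Cg-Lepob/J (ob/ob, genotype Lep-/-), which lack leptin, overeat and develop a fatty liver, so that both groups are obese and no lean mouse is analysed here. From 8 weeks of age, 6 mice received a low protein diet (LPD, 5% of energy as protein) and 6 a standard protein diet (SPD, 25%) for 3 weeks, and bulk liver RNA was sequenced at 11 weeks. Total counts per library were 19404340 to 23681408 in LPD and 19374676 to 23710930 in SPD livers. One characteristics field gives the diet of LPD replicate 1 as 25% protein, while its title and description place it on LPD; it was kept as LPD, and counts without it are given below. On the first 2 principal components of all tested genes, the livers of LPD replicates 2 and 5 lay away from the rest. LPD replicate 1 lay at -15.3 on the first component. The other LPD livers lay at -48.7 to -20.7 and the SPD livers at 24.7 to 32.1.

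Protein synthesis starts when eIF4F binds the cap of a messenger RNA and eIF3, eIF1, eIF1A and the eIF2 complex with the initiator tRNA find the start codon on the small ribosomal subunit. The elongation factor eEF1A then delivers each aminoacyl-tRNA, the eEF1B subunits recharge eEF1A with GTP, and eEF2 moves the ribosome along by a codon. In human cells, elongation factor messages and some initiation factor messages begin with a terminal oligopyrimidine (TOP) tract, like those of ribosomal proteins, and their translation depends on mTORC1, the kinase that senses amino acids.

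Of the 57 members tested, 28 rose in LPD livers, most of them by small amounts, 2 fell and 27 did not pass the test. Of the 45 initiation members tested, 21 rose, 1 fell (Eif4g3) and 23 did not pass the test; of the 12 elongation members, 7 rose, 1 fell (Eef1akmt1) and 4 did not (edgeR quasi-likelihood F test, Benjamini-Hochberg adjusted p under 0.05 over 13768 genes). The background was high, since 39.9% of all genes tested were called, 20.7% as higher and 19.2% as lower. Against it, 46.7% of the initiation and 58.3% of the elongation members were called higher. The median log2 fold change, LPD over SPD, was 0.13 for initiation and 0.20 for elongation members, against -0.0006 for all genes tested. Whether the classes differ from each other was not tested. The 28 members that rose did so by 1.10-fold to 2.70-fold, with a median of 1.19-fold, and only 2 of the 30 called members (Eif4ebp3 and Eef1akmt1) changed by 1.5-fold or more in either direction. The diets did not overlap in 16 of the 57 members, against 19.9% of all genes tested. In 15 of these every LPD liver lay above every SPD liver (10.2% of all genes) and in 1 every LPD liver lay below (9.73%). Without LPD replicate 1, 21 initiation and 6 elongation members rose. With that liver counted as SPD, 16 and 2 did, and 12 of the 30 called members lost their call, among them Eef2, Eif4b, Eif3f, Eef1b2 and Eef1g. Without LPD replicates 2 and 5, 18 and 4 did. Library codes fall into 2 sets per diet, whose meaning the labels do not give. No set holds livers of both diets, so a difference between the diets cannot be told apart from one between sets. In the larger sets alone (codes LP4 and SP1), 14 initiation and 6 elongation members rose. No member called in the comparison of all livers changed its direction in any of these.

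**Figure D1:**
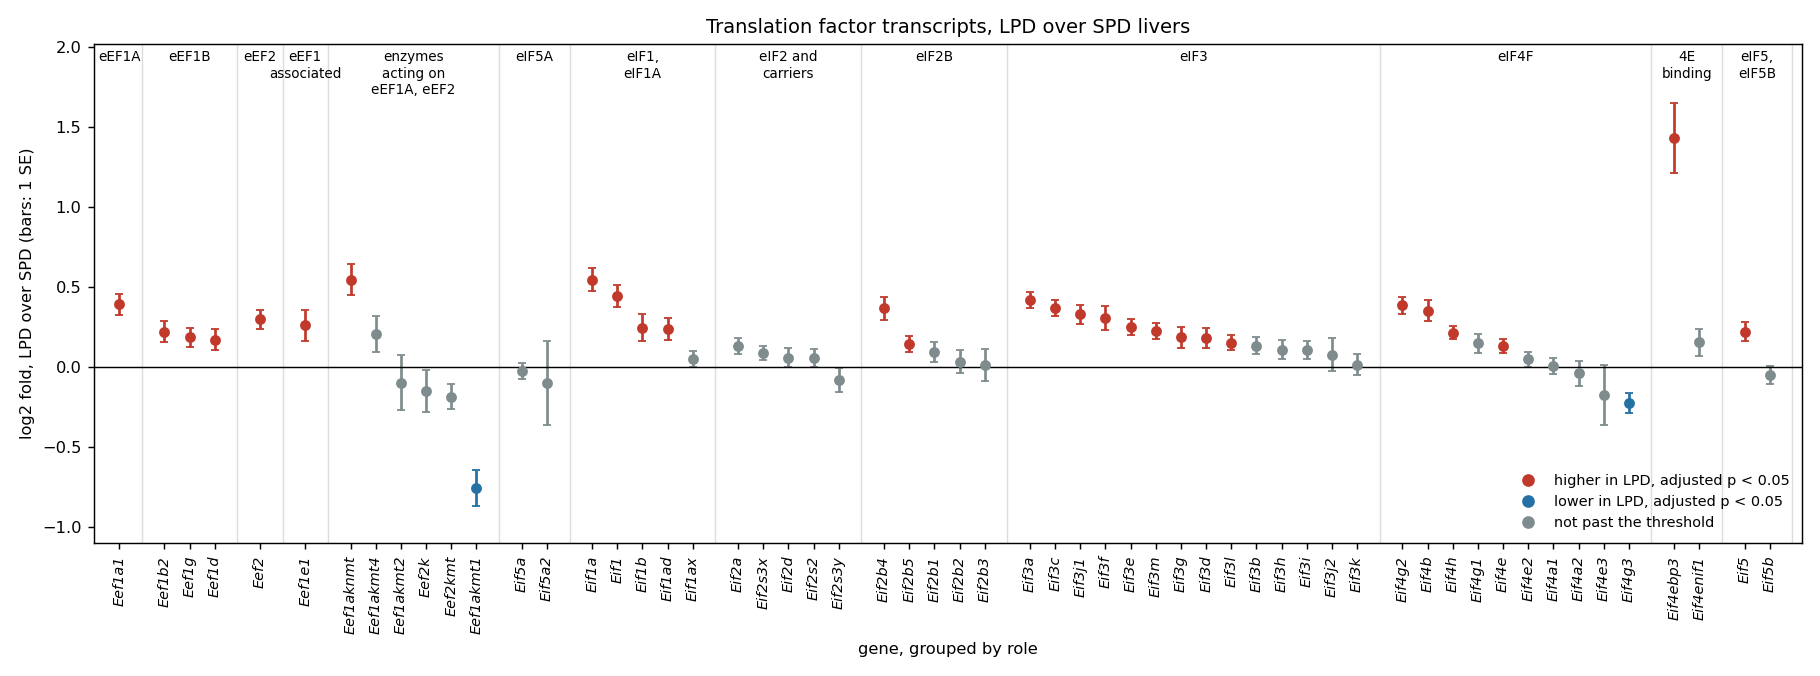
Log2 fold change, LPD over SPD (vertical axis, bars are 1 SE), of the 57 tested members, grouped by role along the horizontal axis; red points rose, blue points fell and grey points did not pass the test. The 5 elongation factors proper (eEF1A, the 3 eEF1B subunits and eEF2) and 9 of 14 eIF3 members rose, while none of the 5 members around eIF2 and neither eIF5A gene did.

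Summed over members, the elongation factors made up 0.863 ± 0.0626% of all counts in LPD livers, against 0.649 ± 0.0184% in SPD livers, and the initiation factors 0.532 ± 0.0166% in LPD and 0.448 ± 0.00775% in SPD livers (SD, n = 6 each). Eef1a1 alone held 76.6 ± 0.533% of the elongation sum in LPD livers and 75.1 ± 0.289% in SPD livers. The elongation sum was 1.62 ± 0.112 times the initiation sum in LPD livers and 1.45 ± 0.0344 times in SPD livers. Leaving Eef1a1 out, this ratio was 0.380 ± 0.0265 in LPD and 0.361 ± 0.00920 in SPD livers, which is a difference smaller than the SD among LPD livers. Such shares of all counts move with the rest of the library: the 10 most abundant genes took 16.1 ± 0.747% of counts in LPD livers and 22.1 ± 0.960% in SPD livers (SD, n = 6 each; exact permutation test, two-sided p = 0.002165, 924 labelings). The levels below are therefore normalised read counts (CPM, on TMM-scaled library totals), given as the lowest, median and highest of the 6 livers of a diet.

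Promoter windows (RefSeq, GRCm38.p6, 250 bases before to 50 after the annotated start) were given for 46 of the 59 members with a count. The palindrome CACGTG, the E-box core read by factors such as Myc, USF and TFEB, lay in 14 of the 46 windows (30.4%), against 1559 of 17492 protein-coding genes with a window (8.91%), both strands searched. Of the 14 members with CACGTG, 7 rose in LPD livers, and of the 32 without it, 15 did. A run of C followed by at least 6 bases that are each C or T, within the 30 bases after the annotated start, was in 13 of the 46 (28.3%), against 2454 of 17492 (14%), sense strand only. Of the 13 members with such a run, 6 rose, and of the 33 without it, 16 did. The sequence TGATGNAA, a form of the amino acid response element read by ATF4, was in 2 of the 46 (4.35%, Eef2k and Eif2s3x), neither of which passed the test, against 723 of 17492 genes (4.13%). These shares are descriptions of the letters in the windows and take no account of base composition. The 46 members all had a count in these livers, while the 17492 genes outnumber the 13768 tested. The members and the 17492 genes were thus not matched by level in liver, and whether their shares differ for that reason was not tested. The following 5 windows are shown, up to 30 bases after the start, as examples of these letters; they were chosen after the values were seen, and other members carry the same letters. They run 5′ to 3′ on the strand of the gene, with CACGTG and the pyrimidine run in capitals.
Eef2, chr10:81176381-81176660 (plus strand): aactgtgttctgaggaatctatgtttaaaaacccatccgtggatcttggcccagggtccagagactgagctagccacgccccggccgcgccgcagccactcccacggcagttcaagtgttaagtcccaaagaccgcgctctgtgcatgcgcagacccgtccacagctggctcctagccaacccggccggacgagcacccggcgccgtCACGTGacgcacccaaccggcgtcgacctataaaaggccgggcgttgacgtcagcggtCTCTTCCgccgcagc
Eif4b, chr15:102073523-102073802 (plus strand): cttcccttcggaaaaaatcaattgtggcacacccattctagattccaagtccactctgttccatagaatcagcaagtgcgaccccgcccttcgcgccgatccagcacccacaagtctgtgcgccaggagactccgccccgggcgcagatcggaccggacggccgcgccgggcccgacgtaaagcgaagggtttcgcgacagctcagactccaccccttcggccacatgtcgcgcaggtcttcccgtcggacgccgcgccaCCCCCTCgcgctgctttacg
Eif3f, chr7:108934165-108934444 (plus strand): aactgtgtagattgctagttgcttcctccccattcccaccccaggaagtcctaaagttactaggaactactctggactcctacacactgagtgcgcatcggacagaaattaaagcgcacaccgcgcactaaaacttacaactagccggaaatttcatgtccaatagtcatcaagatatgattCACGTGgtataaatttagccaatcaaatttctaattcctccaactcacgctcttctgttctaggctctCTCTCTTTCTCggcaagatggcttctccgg
Eif3a, chr19:60790664-60790943 (minus strand): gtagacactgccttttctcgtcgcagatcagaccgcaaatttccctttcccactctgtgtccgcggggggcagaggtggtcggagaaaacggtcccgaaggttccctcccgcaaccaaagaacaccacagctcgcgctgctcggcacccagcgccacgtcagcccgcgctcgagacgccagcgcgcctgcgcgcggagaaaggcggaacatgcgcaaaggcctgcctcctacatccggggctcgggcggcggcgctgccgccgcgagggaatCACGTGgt
Eif4a1, chr11:69672394-69672673 (minus strand): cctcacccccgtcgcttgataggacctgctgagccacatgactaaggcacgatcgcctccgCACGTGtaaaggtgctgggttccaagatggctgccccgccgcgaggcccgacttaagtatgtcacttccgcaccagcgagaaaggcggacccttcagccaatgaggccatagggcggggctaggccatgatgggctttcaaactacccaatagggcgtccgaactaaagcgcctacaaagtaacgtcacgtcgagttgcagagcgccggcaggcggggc
In Eef2, CACGTG began 43 bases before and a pyrimidine run of 7 bases began at base 16 after the annotated start. Eif3f had CACGTG at 68 bases before the start and a run of 11 bases at its first base, and Eif4b had a run of 7 bases from base 11. CACGTG began at base 23 in Eif3a and 189 bases before the start in Eif4a1.

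The cap-binding group of 10 tested members split. In it, 4 members rose, 1 fell and 5 did not pass the test, with a median log2 fold change of 0.09. Eif4g2 (DAP5), a relative of the eIF4G scaffold that lacks the eIF4E-binding part, had 566, 630.3 and 667 CPM in LPD livers, against 448, 477 and 497 CPM in SPD livers. The groups did not overlap, and the log2 fold change was 0.39 ± 0.055 (SE; edgeR adjusted p = 6.73e-05). Eif4b, the RNA-binding partner of the eIF4A helicase, had 284, 349 and 371 CPM in LPD and 255, 265 and 278 CPM in SPD livers, again with no overlap (0.35 ± 0.066, edgeR adjusted p = 0.000636). Eif4h, which like Eif4b stimulates the helicase, had 148, 151 and 156 CPM in LPD and 125, 131 and 135 CPM in SPD livers (0.22 ± 0.042, edgeR adjusted p = 0.000877). The helicase genes showed no such difference. Eif4a1 had 324, 329 and 357 CPM in LPD and 313, 327 and 352 CPM in SPD livers (0.0076 ± 0.05, edgeR adjusted p = 0.921). Eif4a2, its close paralog, had 166, 198 and 212 CPM in LPD and 173, 193 and 235 CPM in SPD livers (-0.04 ± 0.077, edgeR adjusted p = 0.725). The ranges of both helicase genes overlapped between the diets, and the sign of both changed when single livers were left out.

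The cap-binding protein itself, Eif4e, had 56.03, 57.3 and 61.4 CPM in LPD and 51.3, 52.1 and 54.8 CPM in SPD livers, a rise of 9.76% (0.13 ± 0.043 on the log2 scale, edgeR adjusted p = 0.0213). The 6 LPD livers lay above all SPD livers, though only narrowly, and the call was lost under 5 of 22 alternatives (no filter on low counts, the replicate block, LPD replicate 1 counted as SPD, the LP4 and SP1 libraries alone, and without LPD replicates 2 and 5). Eif4g1, the main scaffold of eIF4F, had 524, 561 and 633 CPM in LPD and 491, 519 and 548 CPM in SPD livers and just missed the threshold (0.15 ± 0.058, edgeR adjusted p = 0.0532), with 5 of 6 LPD livers, all but replicate 1, above all SPD livers. Eif4g1 passed the test under 3 of 22 alternatives (the DESeq2 Wald test, without LPD replicate 1, and with that liver counted as SPD). Its paralog Eif4g3 fell, at 47.9, 52.7 and 60.2 CPM in LPD and 57.9, 62.1 and 68.3 CPM in SPD livers (-0.22 ± 0.062, edgeR adjusted p = 0.0103), and this call was lost without LPD replicates 2 and 5, with LPD replicate 1 counted as SPD and in the LP4 and SP1 libraries alone. Eif4e2 and Eif4e3, which code for other cap-binding proteins, had log2 fold changes of 0.05 ± 0.048 and -0.17 ± 0.19 and did not pass the test.

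Eif4ebp3 had the largest fold change of all members. It codes for a binding protein that keeps eIF4E from eIF4G, and it had 5.66, 6.44 and 9.44 CPM in LPD livers, against 1.503, 2.44 and 4.14 CPM in SPD livers. All LPD livers lay above all SPD livers (1.43 ± 0.22, edgeR adjusted p = 0.000132). The value is uncertain, since 501 of its 744 annotated exon bases are shared on the same strand with a read-through gene, AC115631.1, and its counts were not whole numbers in any of the 12 libraries. Eif4enif1, which codes for an eIF4E transport protein, had a log2 fold change of 0.16 ± 0.083 and did not pass the test.

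**Figure D2:**
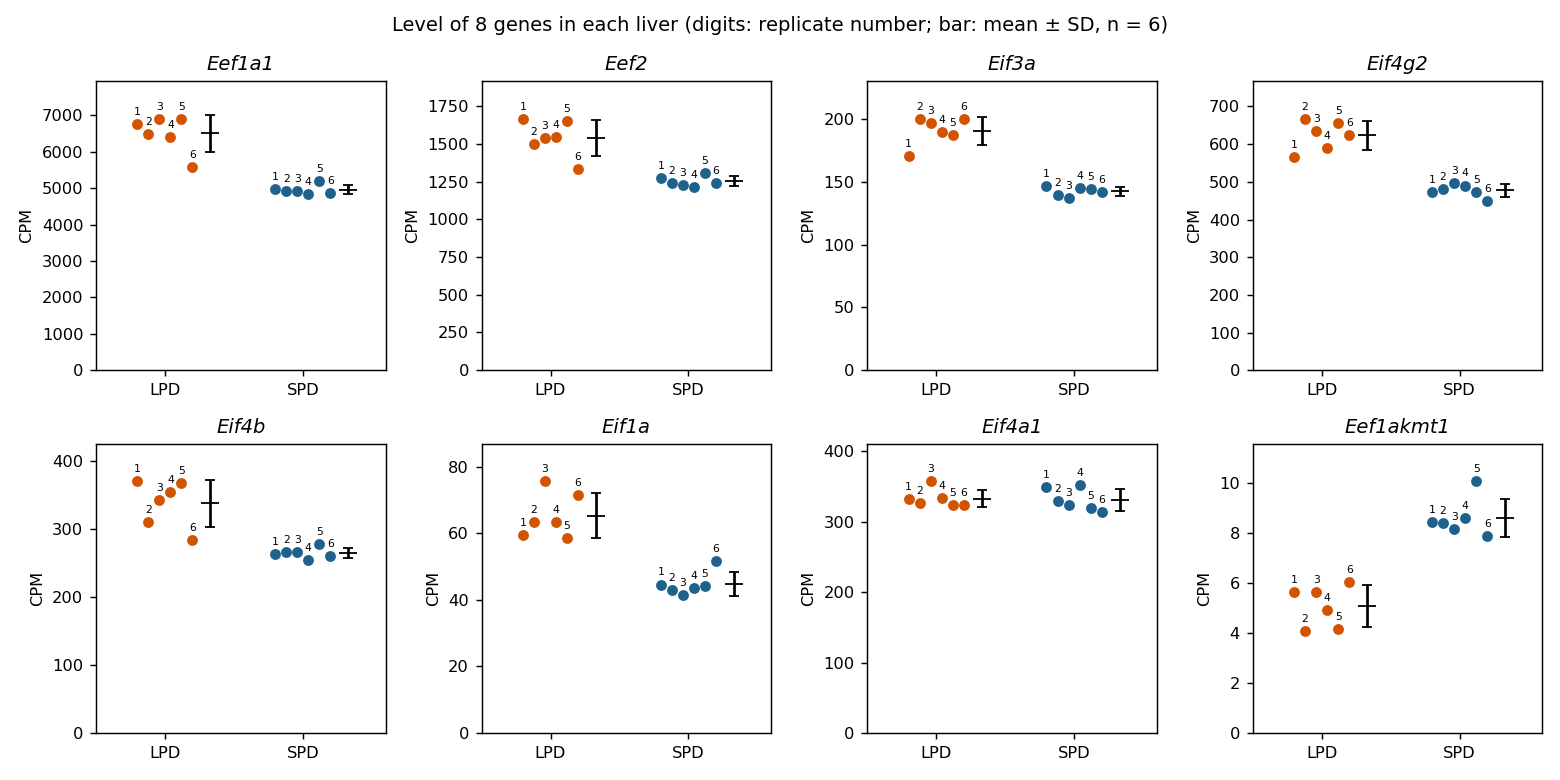
Level in CPM (vertical axes, starting at 0) of 8 members in each LPD and SPD liver, with digits for the replicate and bars for the mean ± SD (n = 6). Eef1a1, Eef2, Eif3a, Eif4g2, Eif4b and Eif1a show no overlap, Eif4a1 overlaps between the diets, and Eef1akmt1 is lower in every LPD liver.

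In the eIF3 complex, the largest initiation factor and the platform that joins the small subunit to the message, 9 of 14 tested members rose and none fell. All 14 had a log2 fold change above 0, with a median of 0.18. Eif3a, the largest subunit and a core of the complex, had 170.3, 193 and 200.3 CPM in LPD and 137, 143 and 147 CPM in SPD livers (0.42 ± 0.05, edgeR adjusted p = 1.38e-05). Eif3c, another core subunit, had 188, 198 and 210.2 CPM in LPD and 148, 153 and 162 CPM in SPD livers (0.37 ± 0.048, edgeR adjusted p = 2.8e-05). Neither gene overlapped between the diets, and both kept their call under all 22 alternatives. Eif3e, a subunit whose human message is a TOP mRNA, had 85.1, 89.4 and 98.8 CPM in LPD and 72.1, 75.1 and 79.2 CPM in SPD livers, also without overlap (0.25 ± 0.049, edgeR adjusted p = 0.000882). Eif3j1, for a loosely bound subunit, had 49.8, 55.7 and 61.96 CPM in LPD and 41.8, 43.5 and 50.2 CPM in SPD livers (0.33 ± 0.06, edgeR adjusted p = 0.000509), with 5 of 6 LPD livers above all SPD livers. Its copy Eif3j2 had a log2 fold change of 0.08 ± 0.10, and both had non-whole counts in every library, so the reads of the pair may be split between them. Eif3j1 also shares 1107 of 5830 exon bases with Spg11 on the other strand, and Spg11 fell (log2 fold change -0.31, edgeR adjusted p = 0.000376). Whether reads were counted by strand is not stated for these data.

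The other called subunits were Eif3f (0.31 ± 0.074), Eif3m (0.23 ± 0.052), Eif3g (0.19 ± 0.065), Eif3d (0.18 ± 0.062) and Eif3l (0.15 ± 0.045). Eif3b, Eif3h, Eif3i and Eif3k ranged from 0.02 to 0.13 and did not pass the test. In level per length, the subunits were unequal: Eif3h averaged 98.7 CPM per kilobase in LPD and 91.4 in SPD livers, and Eif3a 37.2 in LPD and 27.8 in SPD livers. Eif3j2 was the lowest, at 6.50 CPM per kilobase in LPD and 6.16 in SPD livers.

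The group named for eIF1 and eIF1A, which keep the small subunit scanning for a start codon, rose in 4 of 5 cases. Its median log2 fold change was 0.25. Eif1, the gatekeeper of start codon choice, had 349, 365 and 383 CPM in LPD and 239, 256 and 316 CPM in SPD livers (0.45 ± 0.068, edgeR adjusted p = 0.000118). Eif1a, one of the eIF1A genes, had 58.6, 63.3 and 75.6 CPM in LPD and 41.3, 43.7 and 51.6 CPM in SPD livers (0.55 ± 0.072, edgeR adjusted p = 3.33e-05), a rise of 46.1%. The diets did not overlap for either gene. Eif1ax, the X-linked eIF1A gene, had a log2 fold change of 0.05 ± 0.050 and did not pass the test. In level per length Eif1a averaged 30.2 CPM per kilobase in LPD and 20.6 in SPD livers, and Eif1ax 7.30 in LPD and 7.06 in SPD livers. Eif1b, a close relative of Eif1, rose by 0.25 ± 0.084 on the log2 scale. Eif1ad, an eIF1A-like gene, had 24.6, 25.3 and 27.03 CPM in LPD and 19.8, 20.3 and 24.6 CPM in SPD livers (0.24 ± 0.067, edgeR adjusted p = 0.0101). It shares 428 of 2792 exon bases with Banf1 on the other strand, which rose too (log2 fold change 0.18, edgeR adjusted p = 0.0138).

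None of the 5 tested members around eIF2, the carrier of the initiator tRNA and the target of the amino acid-sensing kinase GCN2, passed the test. Eif2s2, its beta subunit, had 80.2, 85.5 and 97.95 CPM in LPD and 81.6, 82.5 and 92.3 CPM in SPD livers (0.06 ± 0.058, edgeR adjusted p = 0.462). The gamma subunit genes Eif2s3x and Eif2s3y had log2 fold changes of 0.09 ± 0.044 and -0.08 ± 0.077. Eif2d and Eif2a, for proteins that can bring tRNA to the ribosome without eIF2, had 0.06 ± 0.059 and 0.13 ± 0.051, and Eif2a was close to the threshold (edgeR adjusted p = 0.0529). Eif2a shares 72 of 6118 exon bases with Serp1 on the other strand. Serp1 had 77029 counts over all libraries, against 11117 for Eif2a, and rose (log2 fold change 0.31, edgeR adjusted p = 0.00373). At the median, the group's log2 fold change was 0.06.

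Of the 5 subunits of eIF2B, the exchange factor that recharges eIF2 with GTP, 2 rose and 3 did not pass the test. Eif2b4, the delta subunit, had 20.4, 22.2 and 26.8 CPM in LPD and 16.02, 17.4 and 20.03 CPM in SPD livers, with no overlap (0.37 ± 0.074, edgeR adjusted p = 0.00115). It shares 204 of 2599 exon bases with Snx17 on the other strand, which did not pass the test. Eif2b5, the catalytic epsilon subunit, had 33.9, 36.01 and 39.4 CPM in LPD and 30.99, 32.3 and 35.1 CPM in SPD livers (0.15 ± 0.05, edgeR adjusted p = 0.0291), and lost its call under 10 of 22 alternatives. Eif2b1, Eif2b2 and Eif2b3 had log2 fold changes of 0.09, 0.03 and 0.01. Eif5, which makes eIF2 hydrolyse its GTP at the start codon, had 236, 282 and 298 CPM in LPD and 228, 236 and 239.6 CPM in SPD livers (0.22 ± 0.06, edgeR adjusted p = 0.00864). Eif5b, which joins the large subunit, had 60.8, 64.3 and 74.9 CPM in LPD and 65.8, 68.3 and 70.1 CPM in SPD livers and did not pass the test (-0.05 ± 0.056, edgeR adjusted p = 0.52). It shares 1643 of 9753 exon bases with Rev1 on the other strand, which rose (log2 fold change 0.43, edgeR adjusted p = 0.000418).

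All 5 tested elongation factors proper rose, with a median log2 fold change of 0.22. Eef1a1, which delivers aminoacyl-tRNA and is by far the most abundant member (GRCm38 chr9:78478449-78489151, minus strand, GENCODE M21), had 5574, 6625 and 6906 CPM in LPD livers, against 4850.5, 4929 and 5182 CPM in SPD livers. Every LPD liver lay above every SPD liver (0.39 ± 0.067, edgeR adjusted p = 0.000324). Eef2, the translocase, had 1335, 1541 and 1667 CPM in LPD and 1217, 1241 and 1307 CPM in SPD livers, and its groups did not overlap either (0.30 ± 0.061, edgeR adjusted p = 0.00132). Per length, Eef1a1 averaged 3625 CPM per kilobase in LPD and 2762 in SPD livers, and Eef2 498 in LPD and 405 in SPD livers.

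The 3 subunits of the exchange factor eEF1B rose by less and overlapped between the diets. Eef1b2 (alpha, catalytic) had 110.2, 129.96 and 131 CPM in LPD and 97.4, 109 and 119 CPM in SPD livers (0.22 ± 0.063, edgeR adjusted p = 0.0115). Eef1g (gamma, structural) had 180.5, 207 and 215 CPM in LPD and 168, 173 and 199 CPM in SPD livers (0.19 ± 0.059, edgeR adjusted p = 0.019). Eef1d (delta, catalytic) had 56.6, 66.1 and 72.5 CPM in LPD and 54.8, 56.9 and 63.5 CPM in SPD livers (0.17 ± 0.063, edgeR adjusted p = 0.0388). In each of the 3, LPD replicate 6 was the lowest liver of its diet and lay inside the SPD range, as did LPD replicate 4 for Eef1g and LPD replicate 2 for Eef1d. Eef1d lost its call under 13 of 22 alternatives, and it shares 277 of 6488 exon bases with Naprt on the same strand, which rose too (log2 fold change 0.20, edgeR adjusted p = 0.0320). Eef1e1 (AIMP3), a scaffold of the tRNA synthetase complex, had 10.4, 10.7 and 12.9 CPM in LPD and 7.69, 9.56 and 10.8 CPM in SPD livers (0.26 ± 0.095, edgeR adjusted p = 0.0382), and lost its call under 11 of 22.

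The enzymes that modify eEF1A and eEF2 did not move together: of 6 tested, 1 rose, 1 fell and 4 did not pass the test. Eef1akmt1, a lysine methyltransferase of eEF1A, had 4.06, 5.27 and 6.02 CPM in LPD livers, against 7.89, 8.42 and 10.1 CPM in SPD livers. It was lower in every LPD liver than in any SPD liver, a fall of 40.8% (-0.76 ± 0.11 on the log2 scale, edgeR adjusted p = 9.52e-05). Eef1aknmt, which methylates the N terminus and a lysine of eEF1A, had 10.4, 11.5 and 14.3 CPM in LPD and 6.91, 8.11 and 9.09 CPM in SPD livers, with no overlap in the other direction (0.55 ± 0.099, edgeR adjusted p = 0.000487). Both calls held under all 22 alternatives. Eef2k, the kinase that stops eEF2, had 6.27, 8.37 and 10.3 CPM in LPD and 7.53, 8.97 and 10.97 CPM in SPD livers and did not pass the test (-0.15 ± 0.13, edgeR adjusted p = 0.394). Eef2kmt, Eef1akmt2 and Eef1akmt4 had log2 fold changes of -0.18, -0.10 and 0.21 and did not pass it. Eef2kmt and Eef1akmt4 share exon bases with Alg1 and Alg3 on the other strand, neither of which passed the test.

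Eif5a, named for initiation but known to help ribosomes through slow stretches in elongation, was abundant and did not differ detectably. It had 288, 299.6 and 317 CPM in LPD and 296, 305 and 322 CPM in SPD livers (-0.02 ± 0.047, edgeR adjusted p = 0.725). Per length, its level of 353 CPM per kilobase in LPD and 358 in SPD livers was the highest of the initiation members. Eif5a2 was near the limit of the test at 0.501 to 1.40 CPM in LPD and 0.582 to 1.06 CPM in SPD livers.

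The 23 members not tested were mostly silent here. All 21 initiation members without a test had 0 counts in all 12 libraries, and 17 of them are numbered Eif1ad copies. The others were Eif4e1b, a germline eIF4E, the Eif4a3 copies Eif4a3l1 and Eif4a3l2, and Eif2c5, whose name fits the pattern but which RefSeq also lists as Ago5. Eef1a2, the eEF1A gene of muscle and nerve, had 2 counts in 1 SPD library, and the summed level of 4 skeletal muscle markers was at most 0.251 CPM in LPD and 0.197 CPM in SPD livers. Eef1akmt3 had 9.83 counts over all libraries.

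The 9 members whose human messages are known as TOP mRNAs (Eef1a1, Eef1b2, Eef1d, Eef1g, Eef2, Eif3e, Eif3f, Eif3h and Eif4b, a list written after the values were seen, so that its counts are a description) shared a pattern among livers. Of the 9, 8 rose, as did 20 of the other 48, with median log2 fold changes of 0.25 and 0.13. In all 8 of those that rose, LPD replicate 6 was the lowest LPD liver. It was also the lowest in 7 of the 20 other members that rose and in 26 of all 57 members tested. The same held for 20.1% of all genes called higher and 15.4% of all genes tested. The highest SPD liver was replicate 5 or 6 in all 8. At the median of the 8, LPD replicate 6 lay 0.06 above the SPD mean in log2 CPM, and LPD replicates 1 to 5 lay 0.26 to 0.34 above it. For the 20 others that rose, LPD replicate 6 lay 0.32 above the SPD mean, within the 0.21 to 0.34 of the other LPD livers. Ribosomal protein genes, which are TOP mRNAs too, had the same lowest LPD liver in 63 of 76 genes tested (82.9%). Leaving out the lowest LPD liver of these genes raises their fold changes by construction. Without LPD replicate 6, the log2 fold change was 0.44 ± 0.062 for Eef1a1, 0.34 ± 0.057 for Eef2 and 0.37 ± 0.059 for Eif3f. Eif3h then passed the test (0.15 ± 0.054, edgeR adjusted p = 0.0386). So did Eif3b, which is not on the list (0.16 ± 0.055, edgeR adjusted p = 0.0333). Eef1e1, not on the list either, lost its call (0.22 ± 0.096, edgeR adjusted p = 0.0830).

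**Figure D3:**
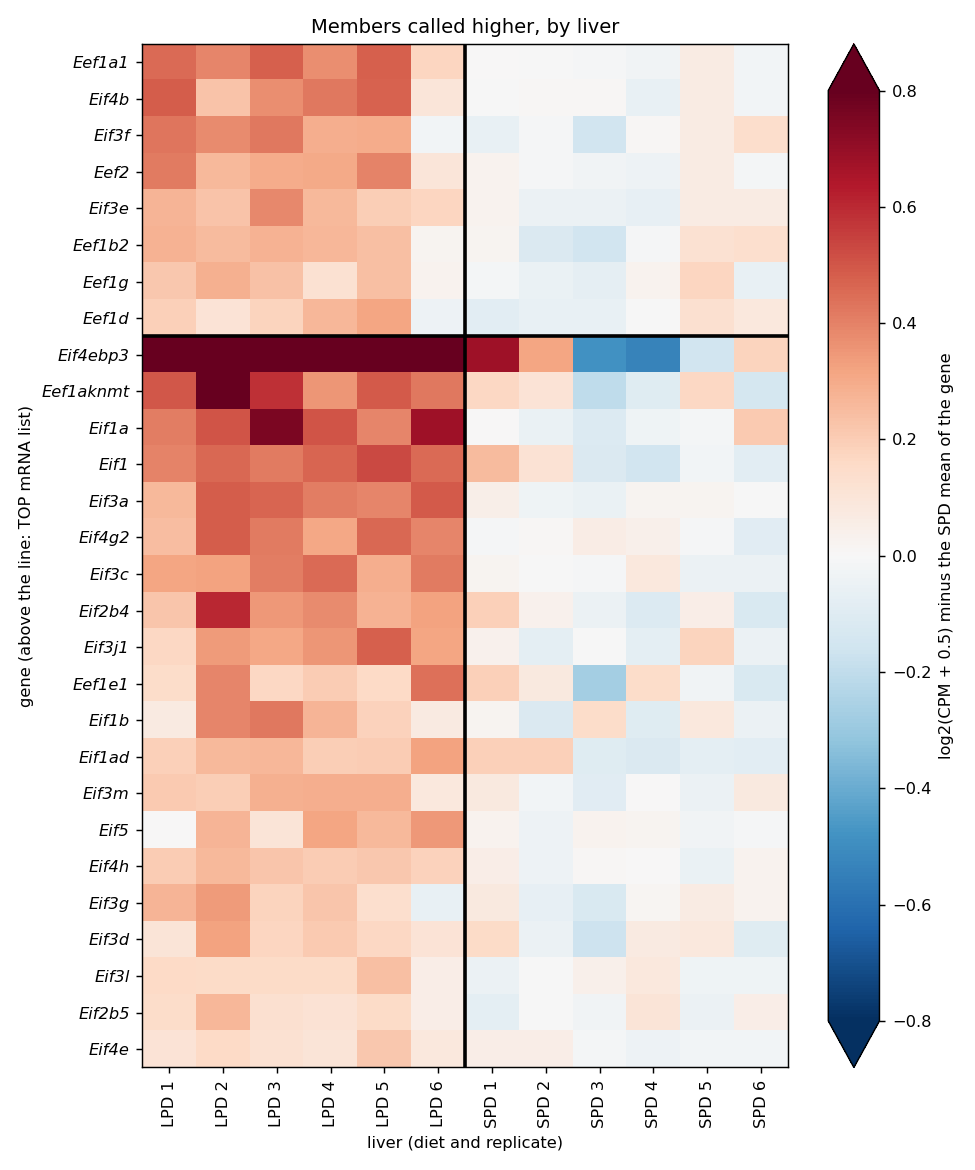
Deviation of each liver from the gene's SPD mean in log2(CPM + 0.5), as colour, for the 28 members that rose (rows) in 6 LPD and 6 SPD livers (columns); the 8 rows above the line are on the TOP mRNA list, and Eif4ebp3 runs past the colour scale. LPD replicate 6 is paler than the other LPD livers in the upper rows and not in most of the lower ones.

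Genes of neighbouring steps were counted from lists chosen with earlier results of these data known. Of all genes tested, 39.9% were called, 20.7% as higher and 19.2% as lower. Of 13 tested genes for poly(A) binding, cap signalling and TOP mRNA binding, 6 rose and 1 fell (53.8% called). Their median log2 fold change was 0.16. Larp1, which binds TOP mRNAs and holds them back when mTORC1 is off, had 112, 120.5 and 136 CPM in LPD and 85.6, 95.5 and 98.3 CPM in SPD livers (0.38 ± 0.06, edgeR adjusted p = 0.000166). The eIF4E kinase gene Mknk2 had 96.7, 129 and 134 CPM in LPD and 175, 178 and 212 CPM in SPD livers and fell (-0.61 ± 0.083, edgeR adjusted p = 4.45e-05). Neither gene overlapped between the diets. The other kinase gene of the pair, Mknk1, rose (0.33 ± 0.065), as did Paip1, Larp4, Larp4b and Pabpc4.

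For termination, recycling and ribosome rescue, 4 of 11 tested genes rose and none fell (36.4% called, median 0.13). Gtpbp1, a GTPase of ribosome rescue, had 20.8, 22.9 and 24.4 CPM in LPD and 16.8, 19.04 and 19.97 CPM in SPD livers (0.29 ± 0.064, edgeR adjusted p = 0.0019). The ribosome splitting factor gene Abce1 had 63.4, 71.9 and 77.6 CPM in LPD and 58.5, 60.2 and 64.6 CPM in SPD livers (0.23 ± 0.052, edgeR adjusted p = 0.00288). For diphthamide, hypusine and selenocysteine, the modifications of eEF2 and eIF5A and a recoding step, 3 of 11 rose and none fell (median 0.14). That is 27.3% called, all of them higher, against 20.7% of all genes tested called higher and 39.9% called in either direction. Secisbp2, which reads the selenocysteine signal, had 12.9, 14.5 and 16.6 CPM in LPD and 9.26, 10.2 and 11.1 CPM in SPD livers (0.52 ± 0.076, edgeR adjusted p = 7.97e-05). Dph1, of the diphthamide pathway that modifies eEF2, had 16.2, 16.9 and 17.9 CPM in LPD and 9.39, 12.5 and 15.2 CPM in SPD livers (0.45 ± 0.095, edgeR adjusted p = 0.00173).

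The factors of mitochondrial translation gave other values. Of 10 tested, 1 rose and 1 fell (20% called, against 39.9% of all genes tested). Of the 10, 8 had a log2 fold change below 0, and the median was -0.07. Tufm, the mitochondrial counterpart of eEF1A, had 71.01, 78.99 and 82.7 CPM in LPD and 85.3, 90.6 and 96.0 CPM in SPD livers, with no overlap (-0.23 ± 0.053, edgeR adjusted p = 0.00326). Mtif3, an initiation factor of mitochondria, had 21.5, 26.1 and 29.3 CPM in LPD and 20.3, 22.2 and 24.3 CPM in SPD livers (0.20 ± 0.074, edgeR adjusted p = 0.0463). The difference between the cytosolic and mitochondrial lists was not tested.

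**Figure D4:**
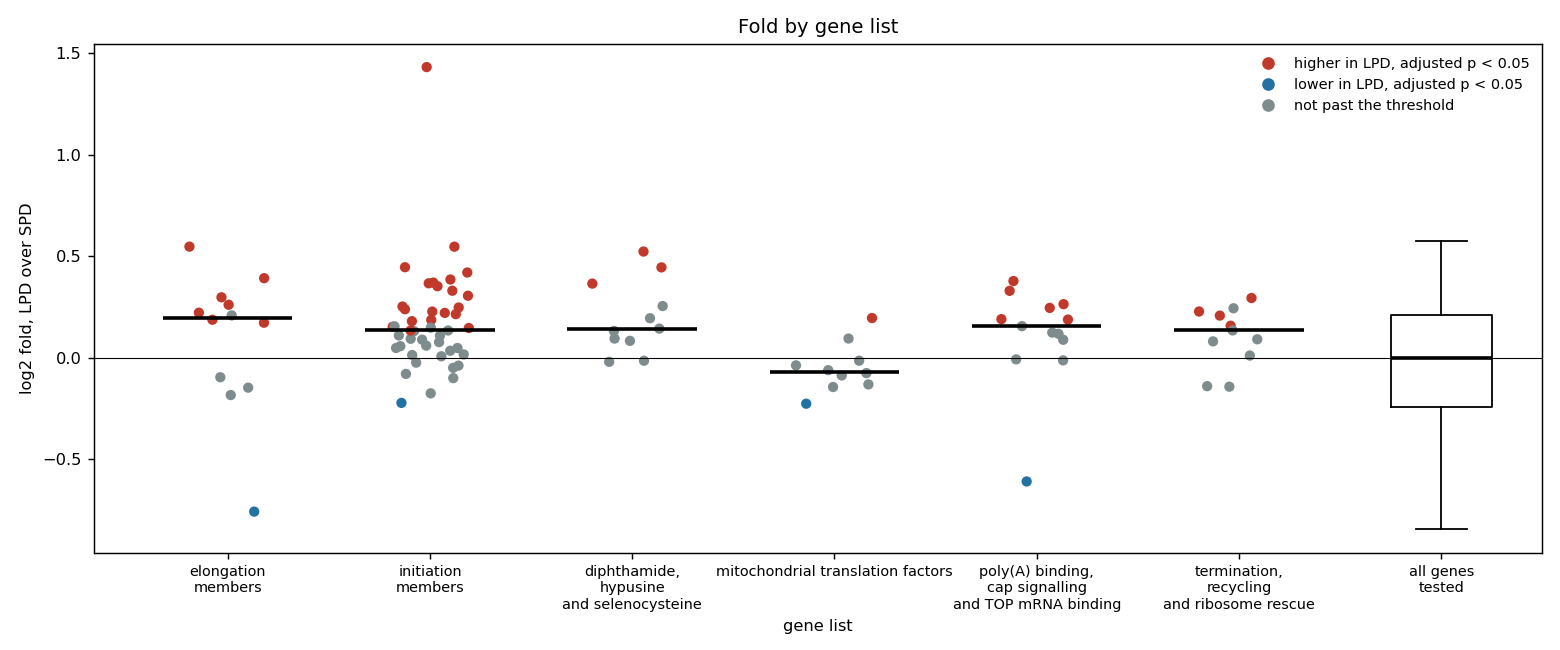
Log2 fold change, LPD over SPD (vertical axis), of each tested gene in the 2 member classes and 4 lists of neighbouring steps, with a black line at each median, beside a box for all genes tested (quartiles, with whiskers at the 5th and 95th percentiles). The medians are 0.20 for elongation, 0.13 for initiation and -0.07 for mitochondrial factors, against -0.0006 for all genes.

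Of 36 cell type markers tested, 5 rose and 8 fell in LPD livers; the share called, 36.1%, was close to the 39.9% of all genes tested. Hepatocyte markers summed to 67765 to 92728 CPM in LPD and 78146 to 86376 CPM in SPD livers, and 4 of 8 rose. Cholangiocyte markers summed to 43.1 to 117 CPM in LPD and 156 to 449 CPM in SPD livers (1 of 5 fell). Their median log2 fold change was -0.0078, with 2 of 5 above 0 and the lowest at -1.95. Lymphocyte markers summed to 4.56 to 7.38 CPM in LPD and 7.10 to 28.0 CPM in SPD livers (1 of 2 tested fell). Stellate cell markers summed to 335 to 564 CPM in LPD and 458 to 650 CPM in SPD livers (3 of 7 fell), Kupffer cell markers to 525 to 739 CPM in LPD and 619 to 929 CPM in SPD livers (1 of 8 rose, 2 fell), and endothelial markers to 239 to 287 CPM in LPD and 271 to 304 CPM in SPD livers (1 of 6 fell). Adipocyte markers were at most 0.501 CPM in LPD and 0.211 CPM in SPD livers. The part of cell makeup in the members' values was not tested, and in bulk liver fewer cells of a type and less RNA per cell cannot be told apart.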

How the data were processed

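Bulk liver RNA of 6 LPD and 6 SPD mice was measured, after TRIzol extraction, DNase treatment and Illumina TruSeq library preparation, per the labels' protocols. The authors deposited 1 matrix of expected counts per gene, not scaled between libraries, with a gene length column used here for levels per kilobase. TopHat, DESeq2 and the mm10 build are named without role in the submitters' processing notes. The counting program and its strand setting are not given. Expected counts were rounded and fitted in R 4.3.3 with edgeR 4.0.16 (filterByExpr, minimum count 10 and minimum total 15; TMM; quasi-likelihood F test of LPD against SPD; Benjamini-Hochberg over 13768 genes; called at adjusted p under 0.05). Each standard error (SE) came from the size of the log2 fold change over the root of F. The fit was tested on simulated data. DESeq2 1.42.0 and limma 3.58.1 were alternatives. Coordinates are GENCODE M21 on GRCm38 and promoters RefSeq GRCm38.p6.

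Full values are given for 20 members listed by role and, in each role group, for the called members with the lowest adjusted p (at most 3), and in each neighbouring list for at most 2. Alternatives were other scalings, filters and tools, the replicate block, single livers left out and doubted livers moved or left out. Eif4g3 was added because it is the only initiation member that fell. Members and lists were chosen with earlier results of these data known. P-values set the difference between the diets against the spread between these livers, which the labels give as separate mice. Depth, at 19374676 to 23710930 counts per library, limits the precision for members near 1 CPM.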

Additional observations from a re-analysis of the deposited data

Results flagged for a closer look

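The 30 members named in full were searched for single livers far from the other 5 of their diet, which chance gives in about 1 of 20 groups, and 7 of the 60 groups held one. Eef1b2 was at 110 CPM in LPD replicate 6, below the next lowest LPD liver at 128 CPM. Eif4a1 was at 357 CPM in LPD replicate 3, above the next at 334 CPM. SPD replicate 5 was the highest SPD liver for Eef1a1, at 5182 CPM with the next at 4965 CPM, for Eef1g, at 199 CPM with the next at 180 CPM, and for Eef1akmt1, at 10.1 CPM with the next at 8.6 CPM. Eif1a was at 51.6 CPM in SPD replicate 6 with the next at 44.6 CPM, and Eif2s2 at 92.3 CPM in SPD replicate 1 with the next at 83.8 CPM.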

How the results depend on the processing

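Over 22 alternatives each, 13 of the 23 called members named in full kept their call and direction under every one, and no called member changed direction in any. With LPD replicate 1 counted as SPD, 2 elongation members rose and 0 initiation members fell. Without LPD replicates 2 and 5, 4 elongation members rose and 0 initiation members fell, and in the LP4 and SP1 libraries alone 0 initiation members fell; the cause was not tested. With factors proper only, 0 elongation members fell, because Eef1akmt1 was then left out by construction. Leaving out single livers gave 17 to 23 initiation and 5 to 6 elongation members that rose. Calls lost this way were those of Eef1d (without LPD replicate 1, 3, 4 or 5 or SPD replicate 1, 2, 3 or 4), Eef1e1 (LPD 2 or 6, SPD 3, 5 or 6), Eif1b (LPD 2 or 3, SPD 2, 4 or 6), Eif2b5 (LPD 2, SPD 1, 2, 3 or 5), Eif3d (LPD 2, SPD 2, 3 or 6) and Eif3g (LPD 1, 2 or 4, SPD 2 or 3). Eif4a1, which was not called, had a log2 fold change of -0.0072 with upper quartile scaling, -0.0058 in the LP4 and SP1 libraries and -0.0101 to 0.0257 without single livers. Eif4a2, not called either, had 0.0492 in the LP4 and SP1 libraries and -0.0707 to 0.0184 without single livers. The replicate numbers did not pair the samples (correlations of same-numbered livers -0.054 to 0.097, and only replicate 6 correlated best with its own number); with the replicate block, 18 initiation and 5 elongation members rose. A change as small as that of Eif4e or Eif2b5 is near the limit of the test with 6 livers per diet.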

Other observations

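Among ribosomal protein genes, which are not members, the highest SPD livers were mostly those of the TOP mRNA list, while the most frequent lowest SPD liver differed. SPD replicate 5 was the highest SPD liver in 47 of 76 ribosomal protein genes tested (61.8%) and SPD replicate 6 in 22 (28.9%), as replicate 5 or 6 was in all 8 members of that list that rose. SPD replicate 3 was the lowest SPD liver in 48 of the 76 (63.2%) and SPD replicate 4 in 14 (18.4%). In the 8 members of the TOP mRNA list that rose, SPD replicate 4 was the lowest in 4 and SPD replicate 3 in 3. Over all genes tested, replicate 5 was the highest SPD liver in 17.0% and replicate 3 the lowest in 19.3%. No test was made of this.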
